A study of Mus musculus with 8 samples.

Results

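Trh, the gene for thyrotropin-releasing hormone, and 8 genes of local thyroid hormone signalling were followed through the hippocampus of mice that ran on a treadmill, ate astaxanthin, or did both. The 9 genes were chosen by name with results of these arrays already known: Trh was selected for its lower level in the treated groups, and Trhr, Trhde, Dio2, Dio3, Thra, Thrb, Hr and Klf9 for their known place in the same system. All 9 were found on the array, with 11 probes, among 27171 genes and unnamed transcripts that could be tested. All 11 probes passed the filter on dim signals, being well above background on both arrays of every group, and none was saturated, so no member was lost. Male C57BL/6J mice, 11 weeks old, formed 4 groups of 8. The sedentary controls (SED) ate chow with 0.5% of a placebo powder, and the ME group ate the same and did mild treadmill exercise. The AX group was sedentary and ate chow with 0.5% of an algal powder that holds 2% astaxanthin, a red carotenoid antioxidant. The AX+ME group had both treatments. All 4 groups therefore shared the powdered chow and individual housing, and no transgene or deletion was involved.

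Each group is represented by 2 hippocampal RNA samples, replicate 1 labelled with the dye Cy3 and replicate 2 with Cy5, each on an array of its own on 1 slide. The labels do not say how the mice were combined into the 2 samples. A p-value below rests on how unevenly the 2 samples differ from group to group, once the shared difference between dyes is removed. The estimate of that spread also draws on all genes. Such variation may be technical. On the slide the row is the dye and the column is the group, so position and group cannot be told apart. A level is the signal of a spot divided by the 75th percentile of its array. Between 63.2% and 76.2% of spots were well above background per array. Because probes differ in how brightly they bind, levels were compared between samples and not between genes. The summed levels of marker lists given at the end are weighted towards their brightest probes.

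TRH is a short peptide hormone, cut out of a larger precursor protein. From the hypothalamus it starts the cascade that makes the pituitary release thyrotropin and the thyroid release thyroxine, while in the hippocampus and other brain regions it acts as a neuromodulator released by neurons. Thyroid hormone itself is tuned inside the brain: astrocytes carry deiodinase 2, which turns thyroxine into the active T3, neurons carry deiodinase 3, which destroys T3, and nuclear receptors bound to T3 switch target genes.

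The promoters of Trh and Dio2 are shown because these are the hormone gene with the widest spread between groups and the gene for the enzyme that makes T3 in the brain. Of the 9 genes, 6 had an entry among the RefSeq promoters (build GRCm38.p6), and Trhr, Thra and Hr had none. Each line below gives the 250 bases before the annotated start, 5′ to 3′ on the strand of the gene, with motif matches in capitals. The Trh stretch lies at chr6:92244651-92244900 and the Dio2 stretch at chr12:90739039-90739288, both on the minus strand.
Trh: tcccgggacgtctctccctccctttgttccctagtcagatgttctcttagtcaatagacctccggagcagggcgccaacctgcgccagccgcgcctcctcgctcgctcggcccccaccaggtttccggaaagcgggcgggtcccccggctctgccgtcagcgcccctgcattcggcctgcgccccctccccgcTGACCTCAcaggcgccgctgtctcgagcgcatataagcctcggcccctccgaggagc
Dio2: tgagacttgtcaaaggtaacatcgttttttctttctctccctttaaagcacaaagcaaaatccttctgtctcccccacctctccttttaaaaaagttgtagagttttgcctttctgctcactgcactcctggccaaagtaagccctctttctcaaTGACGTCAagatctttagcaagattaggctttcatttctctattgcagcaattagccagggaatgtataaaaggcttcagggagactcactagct
The letters searched on both strands were AGGTCA, the hexamer that nuclear hormone receptors bind, and TGACNTCA, the cAMP response element with its middle base free. In the Trh promoter both matched at overlapping letters: TGACCTCA lies from -57 to -50 before the start, and its first 6 letters, from -57 to -52, are the hexamer read from the opposite strand. The Dio2 promoter held TGACGTCA from -95 to -88 and no hexamer. Of the other members' windows, the first of the 2 Thrb promoters held the hexamer from -184 to -179, and the second Thrb promoter and those of Trhde, Dio3 and Klf9 held neither. Among all 32851 promoters of the same length, 14% held the hexamer and 7.49% the response element. These matches describe letters and not bound sites.

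Trh was high in sedentary mice on placebo and low in every other group. In the SED samples its level was 0.320 with Cy3 and 0.264 with Cy5, and in the ME samples it was 0.0985 and 0.0899. In the AX samples the Trh level was 0.0858 with Cy3 and 0.0696 with Cy5, and in the AX+ME samples it was 0.119 and 0.117. Both SED samples therefore lay above all 6 others, and no 2 groups overlapped in their raw levels. Within each dye the order was SED, then AX+ME, then ME, then AX. The scanner intensities of the Trh spot ran from 152 in the Cy3 AX sample to 539 in the Cy5 SED sample, and each of these readings was well above background.

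**Figure D1:**
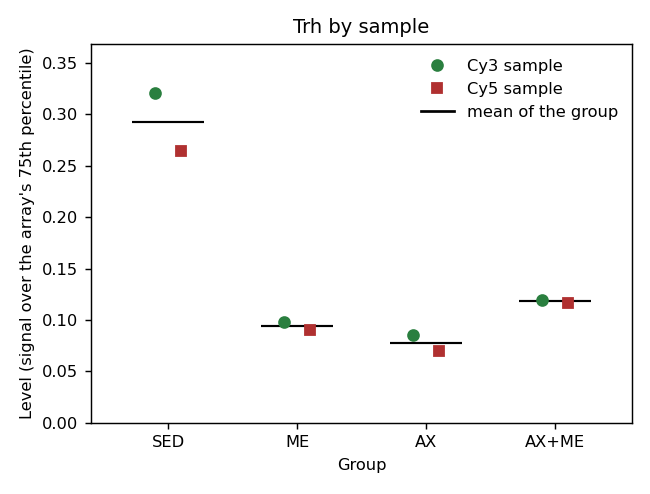
Trh level in each of the 8 hippocampal samples (signal over the 75th percentile of the array), with Cy3 samples as circles, Cy5 samples as squares and the mean of each group as a bar. The SED samples sit at 0.320 and 0.264 and the other 6 samples between 0.0696 and 0.119.

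Set against SED, Trh was 3.09-fold lower in ME, a log2 difference of -1.63 (SE 0.0867 from the limma fit, -1.70 within Cy3 and -1.56 within Cy5). In AX, Trh was 3.76-fold lower, at -1.91 (-1.90 and -1.92 within the dyes), and in AX+ME it was 2.47-fold lower, at -1.30 (-1.42 and -1.18). The 3 comparisons share the 2 SED samples, so they are not independent of each other. Since Trh was chosen for this contrast, these values are a description and no test is given. The 3 treated groups lay much closer together. Trh in AX+ME was higher than in AX by 0.61 on the log2 scale, or 1.53-fold (0.48 within Cy3, 0.74 within Cy5), and higher than in ME by 0.33 (0.28 and 0.38). ME lay above AX by 0.28 (0.20 and 0.37). Each of these 3 differences between treated groups had the same direction in both dyes. With the combined treatment Trh thus stood 2.24 above the sum of the separate log2 differences (SE 0.123). Counted from the lowest of 27171 genes, the Trh difference ranked 65 in ME, 25 in AX and 78 in AX+ME.

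On the SED arrays, areas of dim spots lie at columns below 70 of the array, and the Trh probe is at column 108, outside them. The 65 spots within 5 rows and columns of it had a median SED excess over the other arrays of -0.04 on the log2 scale in Cy3 and -0.08 in Cy5. For Trh itself the excess was 1.67 and 1.55, above every surrounding spot, the highest of which reached 0.30 in Cy3 and 0.28 in Cy5. Trh was chosen for this excess, so its standing above unselected spots follows from the choice. Of the members' other probes, both for Thrb, the one for Hr and 1 of the 2 for Thra lie below column 70. For each of the 10 probes of the other members the excess fell within the range of its surrounding spots.

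**Figure D2:**
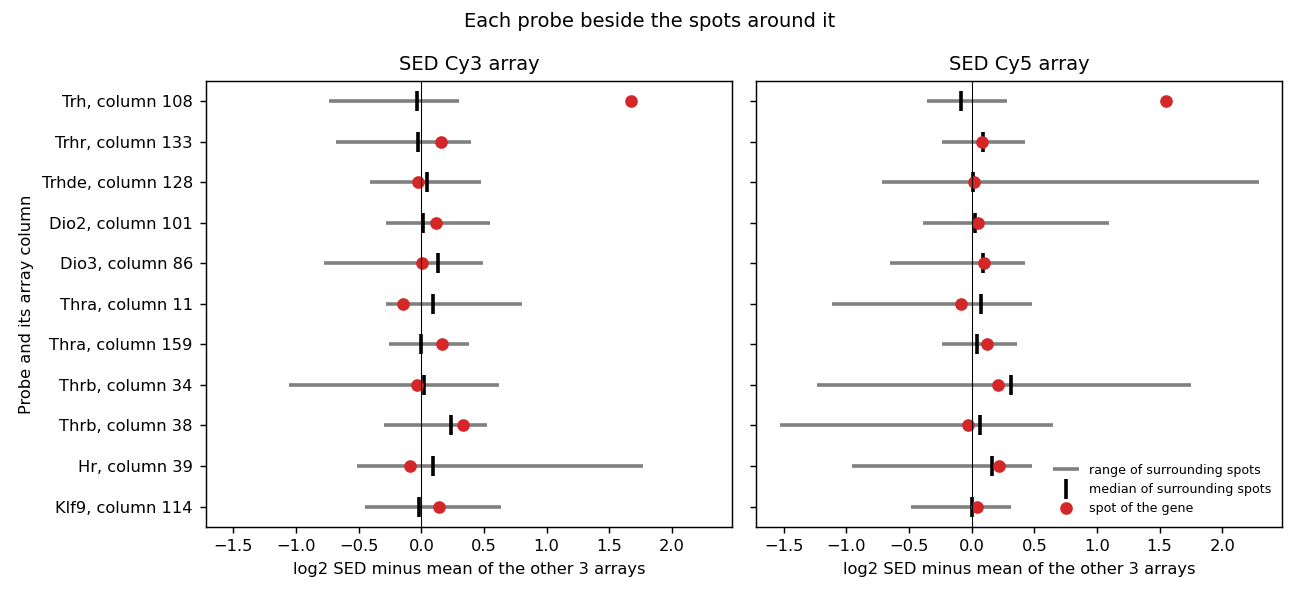
Excess of the SED array over the mean of the other 3 arrays of the same dye (log2) for each of the 11 probes, named by gene and array column. Red points are the probe's own spot, grey lines the range and black ticks the median of the spots within 5 rows and columns. The Trh spot, chosen for its excess in SED, alone lies outside its range, at 1.67 and 1.55.

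None of the other 8 genes passed the test in any comparison. Adjusted p-values are from limma with Benjamini-Hochberg adjustment over all 27171 genes, and the threshold was 0.05. Against SED, 0 of 8 were called in ME, where 2.85% of all genes were, 0 of 8 in AX (3.29% of all genes) and 0 of 8 in AX+ME (6.7%). Those shares depend on probes in the area of dim spots. With probes at columns 70 and above alone, 0 genes were called in ME, 0 in AX and 3 in AX+ME. The probes tested for Trhr, Trhde, Dio2, Dio3, Thra and Klf9 lie at such columns. Between treated groups 0 of 8 were called in each pair (AX+ME with ME, AX+ME with AX, ME with AX), as was 0% of all genes. For the interaction, which asks whether the combined treatment differs from the sum of both alone, 0 of 8 were called beside 0.464% of all genes. At an unadjusted p under 0.05, 0, 2 and 0 of the 8 passed against SED in ME, AX and AX+ME, where 24.3%, 26.5% and 32.0% of all genes did. Over the pairs in that order, 0, 1 and 0 passed between treated groups (8.21%, 5.91% and 7.17% of all genes) and 2 for the interaction (14.8%). None of the 8 was 1.5-fold apart from SED the same way in both dyes, a size reached by 3.55% of all genes in ME, 3.86% in AX and 5.06% in AX+ME. Lower than SED in both dyes were 5 of the 8 in ME, 5 in AX and 4 in AX+ME, against 44%, 40.4% and 39.5% of all genes. The largest difference of any of the 8 from SED was -0.19 on the log2 scale, for Trhr in AX. The counts over all genes against SED depend on which samples are used. They fell sharply without any 1 of the 6 treated samples and rose without either SED sample.

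**Figure D3:**
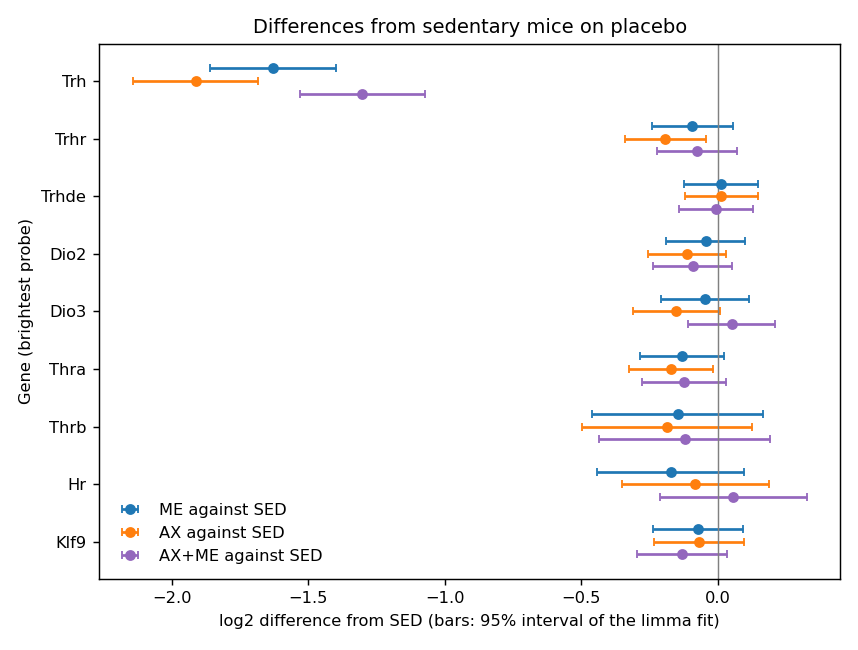
log2 difference from SED for the 9 genes in ME, AX and AX+ME, with 95% intervals of the limma fit as bars. Trh lies between -1.91 and -1.30, the 8 others between -0.19 and 0.06. Trh was chosen for this contrast and its bars take no account of that choice, so they are not a test.

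Trhr encodes the main receptor of TRH, coupled to calcium release. Its level in Cy3 was 0.867 in SED, 0.779 in ME, 0.745 in AX and 0.808 in AX+ME, and in Cy5 it was 1.01, 0.993, 0.903 and 0.979. The SED sample was the highest and the AX sample the lowest within each dye, but every Cy5 sample lay above every Cy3 sample, so the raw ranges of all groups overlapped. In AX, Trhr differed from SED by -0.19 on the log2 scale (SE 0.056, 95% interval -0.342 to -0.045), with an adjusted p of 0.125. In ME the difference was -0.09 (adjusted p = 0.373) and in AX+ME it was -0.08 (adjusted p = 0.398).

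Trhde encodes the membrane enzyme that breaks TRH down outside the cell. Its level stayed between 0.958 and 0.992 in all 8 samples. The groups overlapped, and no fitted difference from SED exceeded 0.013 on the log2 scale. The 95% interval of the AX difference ran from -0.122 to 0.148. The genes that cut and finish the TRH precursor, or split the peptide inside cells, were taken with a second TRH receptor gene, Trhr2, as a list of 10 (among them the convertases Pcsk1 and Pcsk2, the carboxypeptidase Cpe, the amidating enzyme Pam and the peptidases Prep and Pgpep1). All 10 were tested and 0 passed in any comparison. Their median log2 difference from SED was 0.00 in ME, -0.11 in AX and 0.01 in AX+ME, beside -0.05, -0.04 and -0.04 for all genes. Without Trhr2, which was at the floor of the scale in the Cy5 SED sample and whose difference is therefore not given, the median over 9 was -0.01, -0.17 and -0.01. Cpe had -0.68 in ME, -0.77 in AX and -0.77 in AX+ME (adjusted p = 0.0900, 0.0691 and 0.0563) at array column 37, within the area of dim spots.

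Dio2 encodes the enzyme that makes T3 from thyroxine. Its level in Cy3 was 4.70 in SED, 4.40 in ME, 4.22 in AX and 4.35 in AX+ME, and in Cy5 it was 4.41, 4.43, 4.19 and 4.19. The 2 AX and the 2 AX+ME samples all lay below both SED samples, while ME overlapped SED. The log2 difference from SED was -0.11 in AX (SE 0.054, adjusted p = 0.266), -0.09 in AX+ME (adjusted p = 0.306) and -0.05 in ME (adjusted p = 0.654). With another background correction, normexp, the Dio2 difference in AX became -0.32 and passed (adjusted p = 0.0428). Under that correction the median of all genes moved to -0.13 from -0.04.

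Dio3 encodes the enzyme that inactivates T3 and thyroxine. Its level in Cy3 was 0.261 in SED, 0.262 in ME, 0.246 in AX and 0.273 in AX+ME, and in Cy5 it was 0.210, 0.196, 0.180 and 0.215. AX was lowest and AX+ME highest within each dye, though Cy3 read above Cy5 in every group. Between AX+ME and AX, Dio3 differed by 0.20 (SE 0.060, 95% interval 0.043 to 0.362, adjusted p = 0.741), and between AX and SED by -0.15 (adjusted p = 0.202). The list of 5 genes that work with deiodinases (the liver and thyroid enzyme Dio1, the selenoprotein translation factor Secisbp2, and Wsb1, Usp33 and March6, which attach or remove ubiquitin on deiodinase 2) had 0 called in any comparison. Their median difference was -0.11 in ME, -0.12 in AX and -0.13 in AX+ME.

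Entry of the hormone into brain cells was followed in a list of 8 genes for carriers and binding proteins, of which 7 were tested. Slc7a5, a large amino acid transporter that also carries thyroid hormones, was lower in AX+ME than in SED by -0.40 (adjusted p = 0.0474). Its levels were 3.84 and 4.01 in the SED samples and 2.87 and 3.10 in the AX+ME samples. In ME, Slc7a5 differed from SED by -0.36 (adjusted p = 0.0717) and in AX by -0.38 (adjusted p = 0.0599). No call of a list gene given here or below held in all settings, since most or all calls over all genes were lost without 1 treated sample. With probes at columns 70 and above alone, 0 genes were called in ME, 0 in AX and 3 in AX+ME. Slco1c1, a thyroxine carrier, did not pass, with -0.29 in AX+ME. The median over the 7 was -0.06 in ME, -0.03 in AX and -0.04 in AX+ME.

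Thra encodes the thyroid hormone receptor alpha, the main form in brain, and its 2 probes differed in direction. At the brighter probe, column 159, the level in Cy3 was 22.7 in SED, 21.0 in ME, 19.5 in AX and 20.3 in AX+ME, and in Cy5 it was 21.1, 19.0, 19.3 and 19.8. Both SED samples lay above the other 6 samples at that probe. The log2 differences were -0.13 in ME, -0.17 in AX and -0.13 in AX+ME, with adjusted p-values of 0.253, 0.160 and 0.220. At the probe in column 11, in the area of dim spots, SED had 1.87 and 1.88 and the other groups ran from 1.88 to 2.16. There the differences were 0.08, 0.10 and 0.16 (adjusted p = 0.589, 0.508 and 0.258), so for Thra no single direction can be given. With normexp the brighter probe passed in AX (-0.34, adjusted p = 0.0435) and in AX+ME (-0.32, adjusted p = 0.0423). Under normexp the median of all genes was -0.13 in AX and -0.12 in AX+ME.

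Thrb encodes the receptor beta. At its brighter probe the Cy3 SED sample read 2.16, and the other 7 samples lay between 1.66 and 1.77. The Cy5 SED sample, at 1.67, was among those 7, so the fitted differences of -0.15, -0.19 and -0.12 in ME, AX and AX+ME rest on 1 sample (SE 0.118, adjusted p = 0.493, 0.372 and 0.519). At the other Thrb probe the Cy5 SED sample was the highest, at 0.547, and the rest ran from 0.449 to 0.482. The receptors' partners, a list of 13 with the retinoid X receptors Rxra, Rxrb and Rxrg, the corepressor Ncor1 and the coactivators Ncoa1, Ncoa2 and Ncoa3, had 0 called in any comparison. Their median difference from SED was -0.02 in ME, -0.06 in AX and 0.01 in AX+ME.

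**Figure D4:**
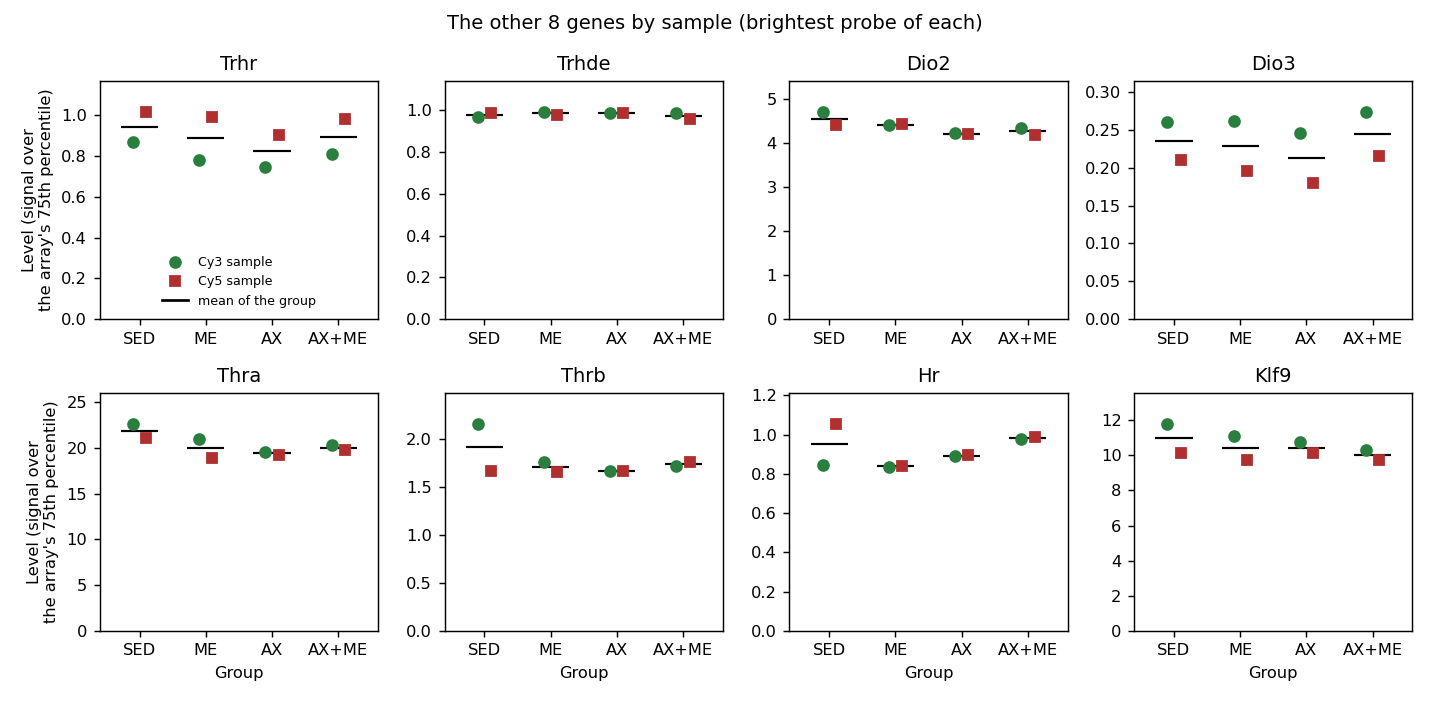
Levels of the 8 other genes in each sample (signal over the 75th percentile of the array, brightest probe, axes from 0), with Cy3 samples as circles, Cy5 samples as squares and group means as bars. No gene shows a gap between SED and the rest like that of Trh, and for Thrb and Hr 1 of the 2 SED samples stands apart.

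Hr encodes hairless, a corepressor whose own transcription is driven by T3 in the developing brain. Its level in Cy3 was 0.846 in SED, 0.834 in ME, 0.889 in AX and 0.980 in AX+ME, and in Cy5 it was 1.06, 0.841, 0.895 and 0.986. The 2 samples of each treated group nearly coincided, while the SED samples lay far apart, with both AX and both AX+ME samples between them and both ME samples below them. For Hr in ME the difference from SED was -0.17 (SE 0.101, adjusted p = 0.363), and between AX+ME and ME it was 0.23 (adjusted p = 0.644). Without the Cy3 SED sample, Hr passed in ME at -0.33 (adjusted p = 0.0332) and for the interaction at 0.47 (adjusted p = 0.0378), so these values rest on which SED sample is used.

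Klf9 encodes a transcription factor that both T3 and glucocorticoids induce in neurons. Its level in Cy3 was 11.8 in SED, 11.1 in ME, 10.8 in AX and 10.3 in AX+ME, and in Cy5 it was 10.2, 9.74, 10.1 and 9.73. SED was the highest within each dye, and the raw ranges overlapped. The log2 difference was -0.13 in AX+ME (SE 0.062, adjusted p = 0.230) and -0.07 in both ME and AX (adjusted p = 0.511 and 0.512). With normexp, Klf9 passed in AX+ME at -0.34 (adjusted p = 0.0371), where the median of all genes was -0.12.

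Beyond Hr and Klf9, 14 genes known to respond to T3 in brain were taken as a list, among them the myelin gene Mbp, the calmodulin-binding Nrgn and the neurofilament genes Nefh and Nefm. All 14 were tested and 0 passed in any comparison. Lower than SED in both dyes were 8 of 14 in ME, 7 in AX and 6 in AX+ME, beside 44%, 40.4% and 39.5% of all genes. Their median log2 difference was -0.06 in ME, -0.08 in AX and -0.04 in AX+ME, beside -0.05, -0.04 and -0.04 for all genes. Nrgn was at 0.24, 0.20 and 0.23 and Nefh at -0.16, -0.23 and -0.22 in ME, AX and AX+ME, with adjusted p-values from 0.0807 to 0.286. Of the pituitary-thyroid list of 4, Tshb was well above background on 0 of 8 arrays and Pou1f1 on 3, and only Cga could be tested.

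Trh in granule cells of the dentate gyrus is known to follow neuronal activity, so 13 activity-regulated genes were also counted. In ME 0 passed, in AX 1 and in AX+ME 2 of the 13, beside 2.85%, 3.29% and 6.7% of all genes. Their medians were -0.06, -0.14 and -0.14, beside -0.05, -0.04 and -0.04 for all genes. Egr1, an immediate early transcription factor, was lower in AX by -0.33 (adjusted p = 0.0481) and in AX+ME by -0.31 (adjusted p = 0.0434), and its difference in ME was -0.23 (adjusted p = 0.0851). Egr2 was lower in AX+ME by -0.61 (adjusted p = 0.0329). In ME, AX and AX+ME, Fos had -0.05, -0.13 and -0.18 and Bdnf -0.09, -0.18 and -0.23. The neuropeptide gene Npy had 0.45, 0.35 and 0.41, and Penk -0.87, -1.02 and -0.75 (adjusted p = 0.0990, 0.0719 and 0.0910 for Penk). None of these 4 genes passed. The probes of Fos, Npy and Penk lie at columns 3, 51 and 15, within the area of dim spots. Of the 13, 8, 8 and 7 were lower than SED in both dyes, beside 44%, 40.4% and 39.5% of all genes. Higher in both dyes were 3, 3 and 4.

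By a fixed rule, the 5 genes most like Trh were taken by Pearson's r over the 8 samples after removing each dye's mean. The 596 candidates lay at columns 70 and above and differed by at least 1.5-fold between their highest and lowest group. They were Dtl (r = 0.989), a substrate receptor of a ubiquitin ligase in DNA replication, Drd1 (0.985), the dopamine D1 receptor, Mcf2 (0.976), a guanine nucleotide exchange factor, Fhod3 (0.971), a formin, and Bmp3 (0.970), a bone morphogenetic protein. All 5 were highest in both SED samples and lowest in AX on average, and the differences were smaller than those of Trh: Dtl, with the widest span, had -0.73 in ME, -0.86 in AX and -0.67 in AX+ME. These genes were picked for the likeness, and r rests largely on the gap between SED and the rest, so no p is given. Of the members, Thra at its brighter probe (r = 0.921) and Trhr (0.866) came nearest to the Trh pattern, and Trhde (-0.358) was farthest.

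**Figure D5:**
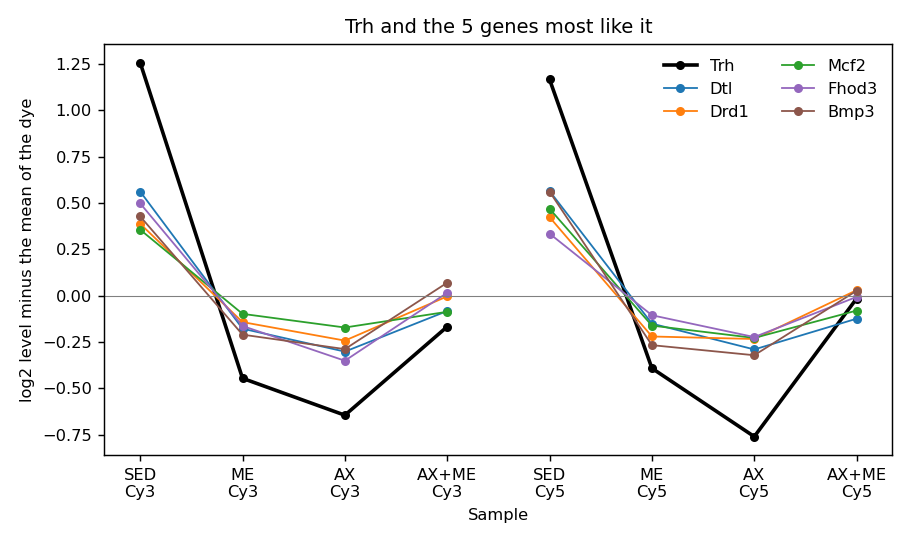
log2 level minus the mean of the dye for Trh (thick black line) and the 5 genes most like it, by sample, with Cy3 samples on the left and Cy5 samples on the right. All 6 lines start high at SED and are lowest at AX, and Trh has the widest range.

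The labelled tissue was checked against marker lists. All 9 markers of hippocampal neurons were well above background on all 8 arrays, and of these Zbtb20, at array column 1, was lower in ME and AX+ME by -0.52 and -0.42 (adjusted p = 0.0366 and 0.0408). Their summed level ran from 64.9 to 67.4 in SED and from 61.8 to 66.8 in the other groups. Trh is abundant in the hypothalamus, which lies near the hippocampus in the brain. Of 10 hypothalamic markers, 4 (Oxt, Hcrt, Pmch and Agrp) were well above background on all 8 arrays, Avp on 7 and Rax on 5. The regulators Sim1, Otp, Nkx2-1 and Hmx2 were so on 1, 0, 2 and 1. Avp read 0.0736 and 0.0859 in SED, 0.0351 and 0.0246 in ME, 0.0862 and 0.0818 in AX and 0.0535 and 0.0956 in AX+ME. Of the 6 markers that could be tested, 4 were lower than SED in ME in both dyes and 1 was higher. The summed level of these 6 was 0.469 to 0.569 in SED, 0.354 to 0.393 in ME, 0.510 to 0.526 in AX and 0.428 to 0.483 in AX+ME. Without Oxt, left out after its values were seen, the other 5 summed to 0.362 to 0.444 in SED and 0.248 to 0.304 in ME. In AX they summed to 0.302 to 0.318 and in AX+ME to 0.278 to 0.326. These ranges lay below SED, but Agrp read 0.156 in the Cy5 SED sample and 0.0352 in the Cy3 SED sample. The gap within Cy5 therefore rests largely on that Agrp reading. Rax, a regulator of hypothalamic development and of tanycytes, was lower in AX+ME by -1.68 (adjusted p = 0.0375) with 1 of the 2 AX+ME arrays well above background, and Oxt was higher in AX by 0.85 (adjusted p = 0.0264).

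Other neighbouring tissues were read in the same way. The summed level of 5 pituitary markers was 1.46 to 1.51 in SED, 0.733 to 0.752 in ME, 1.12 to 1.17 in AX and 1.11 to 1.12 in AX+ME, and Fshb and Tshb were well above background on no array. Pomc, a precursor of pituitary and hypothalamic peptides, was lower in ME, AX and AX+ME by -1.12, -0.59 and -0.70 (adjusted p = 0.00990, 0.0248 and 0.0167). Prl, the prolactin gene, was well above background on both SED arrays and on neither ME array, at least 5.31-fold lower in ME (adjusted p = 0.0134). Cga also passed in ME (adjusted p = 0.0198), but it was well above background on 1 of 2 SED arrays and neither ME array, which leaves no fold to give. Lhb was higher in AX+ME by 1.09 (adjusted p = 0.0439). Of the 6 striatal markers Drd1 was lower in all 3 groups (-0.59, -0.64 and -0.39, adjusted p = 0.0238, 0.0199 and 0.0399) and Isl1, not well above background on either SED array, was at least 2.13-fold higher in ME and at least 1.69-fold higher in AX+ME (adjusted p = 0.0165 and 0.0272), while the summed level overlapped, at 10.1 to 11.1 in SED and 8.43 to 11.0 in the others. Of 10 choroid plexus markers, 6 were called lower in ME, 8 in AX+ME and 0 in AX. Of all genes, 2.85%, 6.7% and 3.29% were called in either direction. Lower than SED in both dyes were 8, 9 and 6 of the 10, beside 44%, 39.5% and 40.4% of all genes. The medians were -0.46 in ME, -0.50 in AX+ME and -0.09 in AX. The 4 with the smallest p in both ME and AX+ME were F5 (-0.65 and -0.64), Aqp1 (-0.77 and -0.82), Otx2 (-0.51 and -0.60) and Kcne2 (-0.52 and -0.69), with adjusted p-values from 0.0151 to 0.0302. The summed level of all 10 was 53.1 to 70.2 in SED, 48.7 to 58.4 in ME, 54.4 to 62.9 in AX and 50.4 to 52.6 in AX+ME. Ttr alone read 41.0 in the Cy3 and 25.8 in the Cy5 SED sample, so this sum largely follows Ttr. Whether the bright Ttr spot was saturated was not examined. The 5 markers of thalamus and habenula that were tested summed to 5.48 to 6.09 in SED and 5.33 to 5.97 in the others, where Prkcd was higher in ME and AX+ME (0.37 and 0.31, adjusted p = 0.0499 and 0.0487). The 7 astrocyte markers summed to 52.2 to 56.5 in SED and 56.7 to 60.1 in the others. Of these, Slc1a3 was higher in AX by 1.04 and in AX+ME by 1.02 (adjusted p = 0.0222 and 0.0210), and passed likewise in ME (adjusted p = 0.0199). Its probe is at column 57, within the area of dim spots. How far the sum follows that probe was not examined. None of the other 6 passed. Lower than SED in both dyes were 4 of the 7 in ME, 5 in AX and 4 in AX+ME, with medians of -0.04, -0.08 and -0.12, and Aqp4 was at -0.42, -0.44 and -0.44. The part of these tissues in the Trh difference was not tested. In such bulk RNA, fewer cells of a type and less RNA per cell cannot be told apart.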

How the data were processed

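Each deposited file is 1 array's scan, and its intensities were made with Agilent Feature Extraction (version 11.0.1.1 in the submitters' processing notes). The processed signal was background-subtracted and detrended by array, per the file headers. Only the dye of the sample was read. Control spots (3671) were left out, spots of a probe were averaged (55681 probes), and signals were divided by the 75th percentile of the array, floored at 0.001 and converted to log2. Probes were kept if well above background on both arrays of a group, and the brightest probe of a gene was used. All 8 samples entered 1 limma 3.58.1 model (R 4.3.3) with group and dye as terms, 3 residual degrees of freedom. The code was tested on simulated data. The number of arrays limits the precision.

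The members and lists were chosen with earlier results of these data known. Named are all 9 members, list genes past the threshold (at most 4 per list and comparison, with examples of list members) and the 5 genes most like Trh. Groups share replicate numbers because each number is a dye, which the model holds as a term, so the dye term is the replicate block. Alternatives were normexp, quantile and median scaling, other filters, leaving out samples, and the deposited value table. That table held the same intensities within 0.5, on a linear scale and neither centred nor scaled, with medians of 121 to 212. Normexp used median spot signals in place of the planned mean signals.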

Additional observations from a re-analysis of the deposited data

Results flagged for a closer look

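Some effects ran in opposite directions in both dyes between 2 settings. For Trh, exercised minus sedentary was negative with placebo (-1.70 in Cy3, -1.56 in Cy5) and positive with astaxanthin (0.48 and 0.74), a difference of 2.24. Astaxanthin minus placebo was negative in sedentary mice (-1.90 and -1.92) and positive in exercised mice (0.28 and 0.38), again 2.24. This difference was not tested, because Trh was chosen for these values.

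The same opposite signs, at far smaller size, were seen for the exercise effect of Trhr, Thra, Thrb and Hr, with differences of 0.21, 0.18, 0.21 and 0.31. Their interaction in limma had adjusted p-values of 0.338, 0.412, 0.613 and 0.410. For the astaxanthin effect they were seen for Dio3 (0.25, adjusted p = 0.307) and Trhde (-0.031, adjusted p = 0.875). None of these 6 passed. The brightest probe of Thra is meant, and its other probe had an interaction of -0.017 (-0.18 in Cy3, 0.15 in Cy5). In both dyes the interaction was above 0 for 6 of the 8 genes other than Trh and for 40.7% of all genes. Its median over all genes was 0.058. The share of all genes with such opposite signs was not counted.

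In the channel that held no RNA, the Dio3 spot was marked well above background on the Cy5 arrays of ME and AX+ME and not on the SED arrays. Its intensity there reached 11.3, beside up to 10.8 on the SED arrays, 12.1 on the Cy3 AX array, where it was not so marked, and at least 370 in the channel that held the sample.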

How the results depend on the processing

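Over all 20 settings Trh kept its sign in the 6 comparisons of 2 groups (the interaction was not rerun for Trh). Its differences from SED ran from -1.70 to -1.56 in ME, -1.99 to -1.84 in AX and -1.42 to -1.18 in AX+ME. Many of these settings could not change them: the filters, the dye term, the mean of probes and the intensity trend returned the same Trh values. So did leaving out a sample of a group outside the comparison. Against SED in AX+ME, Trh was -1.42 in Cy3 alone and -1.18 in Cy5 alone, and AX+ME lay above AX by 0.48 and 0.74. With normexp AX+ME lay above ME by 0.22 and above AX by 0.49, and with division by the median above ME by 0.24. Leaving out 1 sample at a time gave ranges of -1.40 to -1.20, 0.23 to 0.43 and 0.51 to 0.71 for AX+ME against SED, ME and AX, where the lone sample of a group is assumed to vary like the others.

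Of the other 8 genes, normexp called 2 in AX and 2 in AX+ME, beside 4007 and 5587 of all 27171 genes and unnamed transcripts. Leaving out 1 sample gave 0 to 1 in ME against SED and 0 to 1 for the interaction, both being Hr without SED replicate 1. Without the dye term (no replicate block) 0 of the 8 were called.

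Counts over all genes moved more. In the order ME, AX, AX+ME (each minus SED) and interaction they were 775, 895, 1820 and 126 as reported. They were 1782, 4007, 5587 and 472 with normexp, 1965, 2431, 3632 and 327 with an intensity trend, and 1311, 1638, 2725 and 225 for probes well above background on all arrays. They fell to 221, 270, 434 and 0 without a filter. At columns 70 and above, with 17499 genes and unnamed transcripts tested in place of 27171, they fell to 0, 0, 3 and 0. Division by the median gave 2020 for AX and 4477 for AX+ME, dropping the dye term 973 for AX+ME, and the mean of probes 51 for the interaction. Without SED replicate 1 they were 4929, 5058, 5387 and 2923, without SED replicate 2 they were 1323, 1447, 2000 and 611, and without any 1 treated sample 0 to 5. Between treated groups, the largest count was 3, for AX+ME minus ME at columns 70 and above. The cause of these shifts was not tested.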
